A study of Homo sapiens with 30 samples.

Results

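The mRNAs of 10 proteoglycan core proteins were followed across SH-EP lines with and without MYCN: DCN (decorin), BGN (biglycan), ASPN (asporin), LUM (lumican), FMOD (fibromodulin), PRELP, OGN (osteoglycin), VCAN (versican), HSPG2 (perlecan), and GPC1 (glypican 1). They are 10 of the 26228 genes listed, taken by symbol. DCN and BGN were chosen on their levels as deposited, which differ in opposite directions between the MYCN lines and SH-EP, so that contrast is given for both as a description with no test. As deposited, in DMSO, DCN lay 7.01- to 18.8-fold below SH-EP in the MYCN lines and BGN 1.42- to 11.9-fold above it, but BGN lay below SH-EP in the S62A line once libraries were scaled to spike-ins.

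Proteoglycans are core proteins that carry sulfated sugar chains. The small leucine-rich proteoglycans (SLRPs) bind fibrillar collagens and growth factors: class I holds decorin, biglycan, and asporin, class II lumican, fibromodulin, and PRELP, and class III osteoglycin. Decorin and biglycan are close paralogs with chondroitin or dermatan sulfate chains, known for binding collagen fibrils and TGF-β. Versican is a large hyaluronan-binding chondroitin sulfate proteoglycan of loose matrix, perlecan a heparan sulfate proteoglycan of basement membranes, and glypican 1 a heparan sulfate proteoglycan held at the cell surface by a lipid anchor. All are typical products of fibroblast-like cells.

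SH-EP is an established neuroblastoma line without MYCN amplification and with a mesenchymal phenotype. It was compared with 4 SH-EP lines that express WT MYCN or its T58A, S62A, or T58A S62A mutant from an exogenous, retrovirally introduced promoter. Residues T58 and S62 are phosphorylation sites that govern MYCN stability. Each of the 5 lines was treated for 6 hours with DMSO or with 1 μM CYC065, an inhibitor of CDK9 and CDK2, with 3 libraries per line and treatment and 30 in all. Each transgene is represented by 1 line, and nothing states that the libraries of a group came from separate cultures, so p-values measure the spread between these libraries, which may be technical. Libraries are numbered 0 to 2, as in the table.

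MYCN was listed at 0 in all 6 SH-EP libraries, and its DMSO means in the MYCN lines ran from 5.72 FPKM (S62A) to 13.5 FPKM (T58A S62A). Mesenchymal markers summed to between 1571 and 5641 FPKM per library, with 6 of 6 at a mean of at least 1 FPKM, whereas the 6 adrenergic markers summed to at most 2.19 FPKM, with PHOX2A at 0 throughout. Schwann cell markers summed to 0.610 to 13.8 FPKM with SOX10 at 0 throughout, and leukocyte and endothelial markers to at most 0.616 and 0.327 FPKM. Read counts were not given. Steps among low values put the depth of CYC065 libraries at 0.305 to 0.554 of the deepest library and that of DMSO libraries at 0.470 to 1. Each of the 6 SH-EP libraries carries a sequencing index that a MYCN-line library also carries, but the pools are not described, and the part of a pool in the comparisons with SH-EP was not tested. The 4 comparisons with SH-EP also share its 3 DMSO libraries.

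DCN lies on chromosome 12 (91534261 to 91576994, minus strand, GRCh37). Its mRNA stood at 28.0, 26.6, and 30.1 FPKM in the SH-EP DMSO libraries (mean 28.2 ± 1.80, SD, n = 3). It stood at 3.61, 4.15, and 4.33 FPKM in WT and at 2.79, 3.08, and 2.88 FPKM in S62A. It stood at 2.56, 2.47, and 1.83 FPKM in T58A and at 1.79, 1.59, and 1.13 FPKM in T58A S62A. The lines ranked SH-EP, WT, S62A, T58A, and T58A S62A with no overlap between neighbours, so every MYCN library lay below every parental library. The mean was 7.01-fold lower in WT, 12.3-fold in T58A, 9.68-fold in S62A, and 18.8-fold in T58A S62A than in SH-EP. As differences of log2(FPKM + 0.1), these were -2.78, -3.58, -3.23, and -4.16 (SE 0.14 each).

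BGN lies on chromosome X (152760438 to 152775004, plus strand, GRCh37). It stood at 13.6, 13.7, and 14.4 FPKM in SH-EP in DMSO (mean 13.9 ± 0.448, SD, n = 3) and at 19.7, 20, and 19.6 FPKM in S62A. It stood at 67.2, 54.4, and 55.2 FPKM in T58A S62A and at 123, 104, and 102 FPKM in WT. T58A was highest, at 165, 156, and 175 FPKM. The order T58A, WT, T58A S62A, S62A, and SH-EP again had no overlap between neighbours, with S62A the MYCN line closest to SH-EP as deposited. Of the MYCN lines, S62A had the least MYCN mRNA and T58A S62A the most, and the part of MYCN level in BGN was not tested. Means were 7.91-fold (WT), 11.9-fold (T58A), 1.42-fold (S62A), and 4.24-fold (T58A S62A) above SH-EP, or 2.97, 3.56, 0.51, and 2.07 in log2 (SE 0.08 each). When libraries were scaled instead to the ERCC spike-ins, RNAs added in proportion to cell number, these differences were 1.71, 2.60, -1.45, and 1.23, so that BGN lay below SH-EP in S62A. On that scale the median gene moved by -1.18, -0.89, -1.88, and -0.76, against 0.07, 0.05, 0.06, and 0.06 as deposited, and DCN differed by -4.05, -4.56, -5.19, and -5.04.

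ASPN lies on chromosome 9 (95218487 to 95244788, minus strand, GRCh37) and encodes the class I SLRP that lacks the usual sugar chain site. It stood at 10.1, 10.0, and 11.1 FPKM in SH-EP in DMSO. It stood at 0.701, 0.433, and 0.562 FPKM in WT, at 0.386, 0.277, and 0.203 in T58A, at 0.117, 0.131, and 0.277 in S62A, and at 0, 0.146, and 0.219 in T58A S62A. Every MYCN library lay below 1 FPKM, and T58A, S62A, and T58A S62A overlapped. ASPN passed the filter of a mean of 1 FPKM only through SH-EP, so its differences of -4.0, -4.78, -5.30, and -5.72 in log2 (SE 0.43) are likewise given without a test, and at these levels they depend on the added 0.1.

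The upstream sequences of ASPN and BGN are shown because the pair are class I relatives with opposite levels in these lines. Both are the 250 bases before the RefSeq start in GRCh38.p14, read 5′ to 3′ on the gene's strand. Matches to CANNTG, the general E-box letters, are in capitals. They are matches of letters only and do not mark sites known to be bound by MYCN.
ASPN promoter (chr9:92482507-92482756, minus strand): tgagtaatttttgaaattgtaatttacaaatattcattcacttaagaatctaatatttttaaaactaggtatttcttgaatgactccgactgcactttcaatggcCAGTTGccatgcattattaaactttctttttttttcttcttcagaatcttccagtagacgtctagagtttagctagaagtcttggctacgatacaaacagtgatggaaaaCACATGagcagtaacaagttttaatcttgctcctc
BGN promoter (chrX:153494730-153494979, plus strand): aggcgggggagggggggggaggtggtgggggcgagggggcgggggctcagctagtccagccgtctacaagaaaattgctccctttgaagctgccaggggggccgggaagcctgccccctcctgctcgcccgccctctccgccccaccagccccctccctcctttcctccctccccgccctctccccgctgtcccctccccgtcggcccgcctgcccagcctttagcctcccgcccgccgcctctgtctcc
The ASPN window is 32.4% G or C and holds CAGTTG 145 bases and CACATG 35 bases before the start. The BGN window is 74% G or C, against a median of 58% over 35116 RefSeq promoter windows of this length, and has no capitals. RefSeq windows were matched for 8 of the 10 genes: OGN also held CANNTG, those of FMOD, PRELP, VCAN, HSPG2, GPC1, and BGN did not, and 61.8% of all windows did. The palindromic CACGTG, a subset of CANNTG that reads the same on both strands, was in none of them and in 6.34% of all windows.

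**Figure D1:**
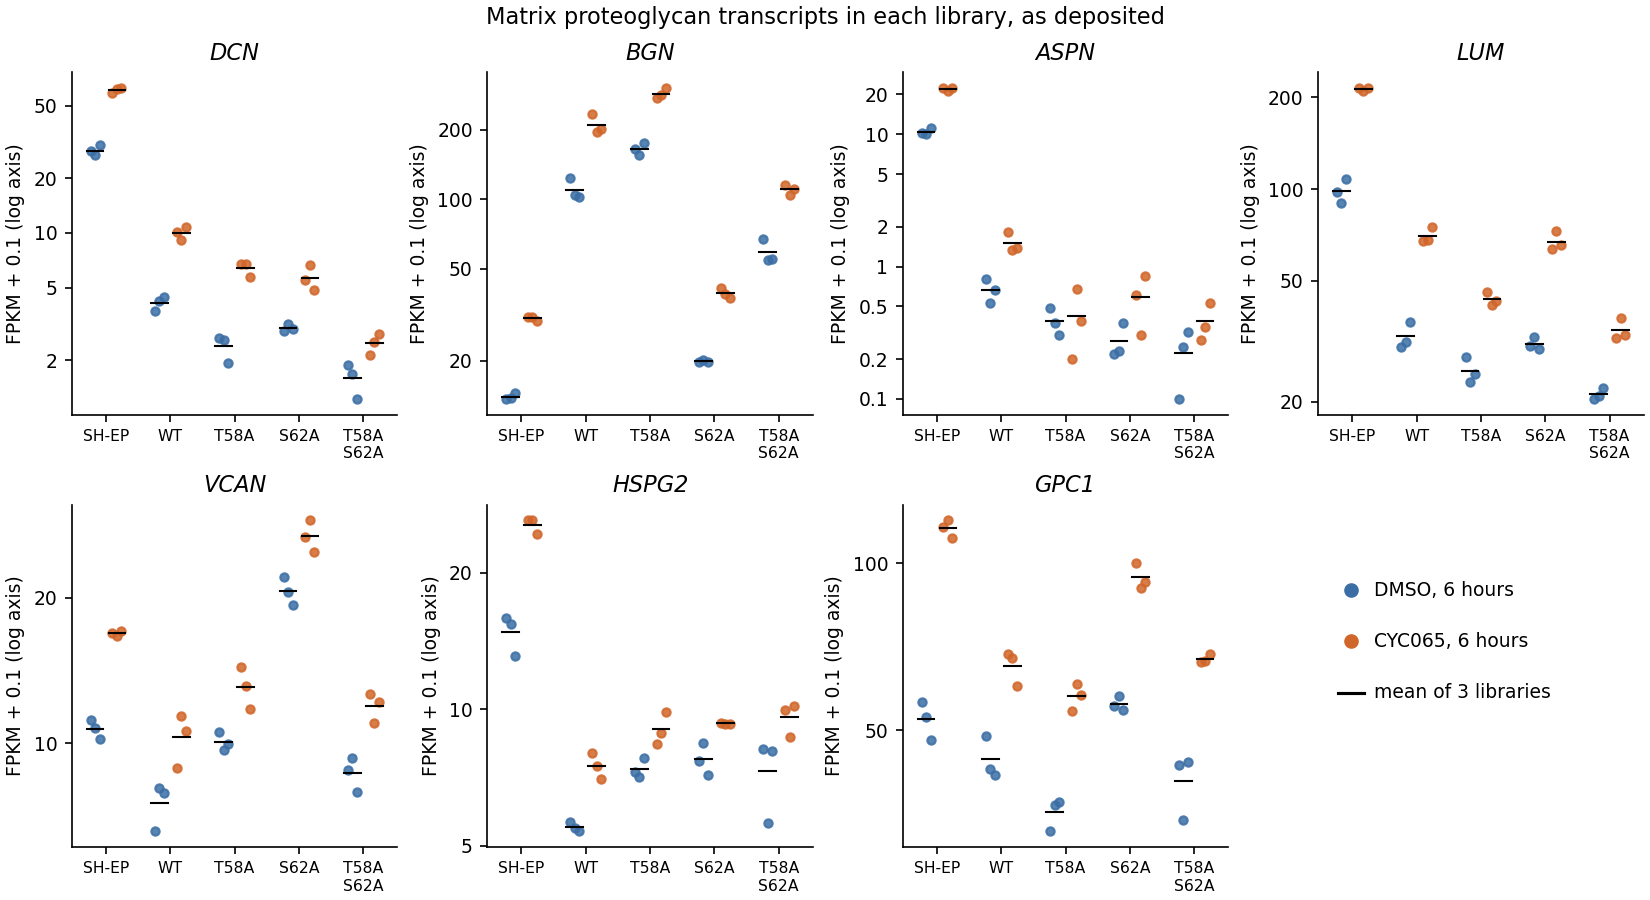
Level of the 7 genes that passed the filter, in FPKM as deposited (logarithmic axis after adding 0.1 FPKM), in the 5 lines in DMSO and CYC065. Each point is 1 library and each bar the mean of 3. DCN, ASPN, LUM, and HSPG2 are highest in SH-EP, and BGN is highest in T58A at 156 to 175 FPKM in DMSO. FMOD, PRELP, and OGN are not drawn.

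Of the genes not used to choose the list, lumican had the highest level in SH-EP. LUM lies 29.0 kb from DCN on chromosome 12 (91496406 to 91505271, minus strand, GRCh37). In DMSO it stood at 97.6, 90.1, and 108 FPKM in SH-EP, at 30.2, 31.4, and 36.5 in WT, and at 30.3, 32.5, and 29.8 in S62A. It stood at 28.0, 23.1, and 24.5 FPKM in T58A and at 20.3, 20.7, and 22.2 in T58A S62A. All 12 MYCN libraries lay below the 3 of SH-EP, and WT and S62A overlapped. LUM fell in every MYCN line, with log2 differences of -1.59 (WT, adjusted p = 6.17e-14), -1.96 (T58A, 1.21e-15), -1.67 (S62A, 2.11e-14), and -2.22 (T58A S62A, 8.43e-17) against SH-EP (SE 0.08 each, limma).

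HSPG2 (chromosome 1, 22148737 to 22263803, minus strand, GRCh37) stood at 15.8, 15.3, and 13 FPKM in SH-EP in DMSO. It stood at 5.53, 5.36, and 5.29 FPKM in WT, at 7.19, 6.98, and 7.73 in T58A, at 7.59, 8.32, and 7.06 in S62A, and at 8.08, 5.52, and 7.99 in T58A S62A. WT was the lowest line except for library 1 of T58A S62A, which fell within the WT range. HSPG2 fell in every MYCN line too, with log2 differences of -1.42 (WT, adjusted p = 8.87e-11), -1.0 (T58A, 3.67e-08), -0.93 (S62A, 1.14e-07), and -1.04 (T58A S62A, 1.82e-08; SE 0.11 each).

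VCAN (chromosome 5, 82767437 to 82878122, plus strand, GRCh37) did not move in one direction. In DMSO it stood at 11.1, 10.6, and 10.1 FPKM in SH-EP, at 6.48, 8.0, and 7.79 in WT, and at 8.72, 9.24, and 7.81 in T58A S62A. It stood at 10.5, 9.59, and 9.87 FPKM in T58A, overlapping SH-EP, and at 21.9, 20.5, and 19.2 in S62A, above every other line. VCAN fell by 0.51 in WT (adjusted p = 6.83e-05) and by 0.30 in T58A S62A (0.00902), differed by -0.09 in T58A (0.457), and rose by 0.94 in S62A (1.09e-08; SE 0.10 each, log2). Without library 2 of T58A S62A, its difference of -0.24 no longer passed (adjusted p = 0.0596). Scaled to the spike-ins, VCAN differed by -1.78 (WT), -1.05 (T58A), -1.01 (S62A), and -1.14 (T58A S62A), so the rise in S62A was one relative to the median gene, which moved by -1.88 there.

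GPC1 (chromosome 2, 241375080 to 241407493, plus strand, GRCh37) varied least. In DMSO it stood at 56.2, 52.7, and 48.0 FPKM in SH-EP, at 48.6, 42.4, and 41.5 in WT, and at 32.7, 36.6, and 36.9 in T58A. It stood at 55.1, 57.5, and 54.3 FPKM in S62A and at 43.1, 34.3, and 43.7 in T58A S62A. S62A and WT each overlapped SH-EP. GPC1 fell by 0.56 in T58A (adjusted p = 2.92e-06), 0.38 in T58A S62A (0.000371), and 0.24 in WT (0.0143) and differed by 0.09 in S62A (0.353; SE 0.08 each, log2). The WT call was lost without WT library 1 (adjusted p = 0.0561), WT library 2 (0.0718), or SH-EP library 0 (0.0855).

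Of LUM, VCAN, HSPG2, and GPC1, 4 were lower in WT, where 22.6% of the 11575 genes tested were lower (54.2% called in either direction). In T58A 3 were lower, against 23.3% of all genes (54.2% either way). In S62A 2 were lower and 1 higher, against 23.4% and 31.0% of all genes (54.3% either way), and in T58A S62A 4 were lower, against 24.1% (55.3% either way). With spike-in scaling every one of these 4 genes was lower in each of the 4 lines, as were 88.7% (WT), 78.0% (T58A), 95.1% (S62A), and 70.2% (T58A S62A) of all genes. In bulk RNA, fewer cells that make a transcript and less of it per cell cannot be told apart.

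**Figure D2:**
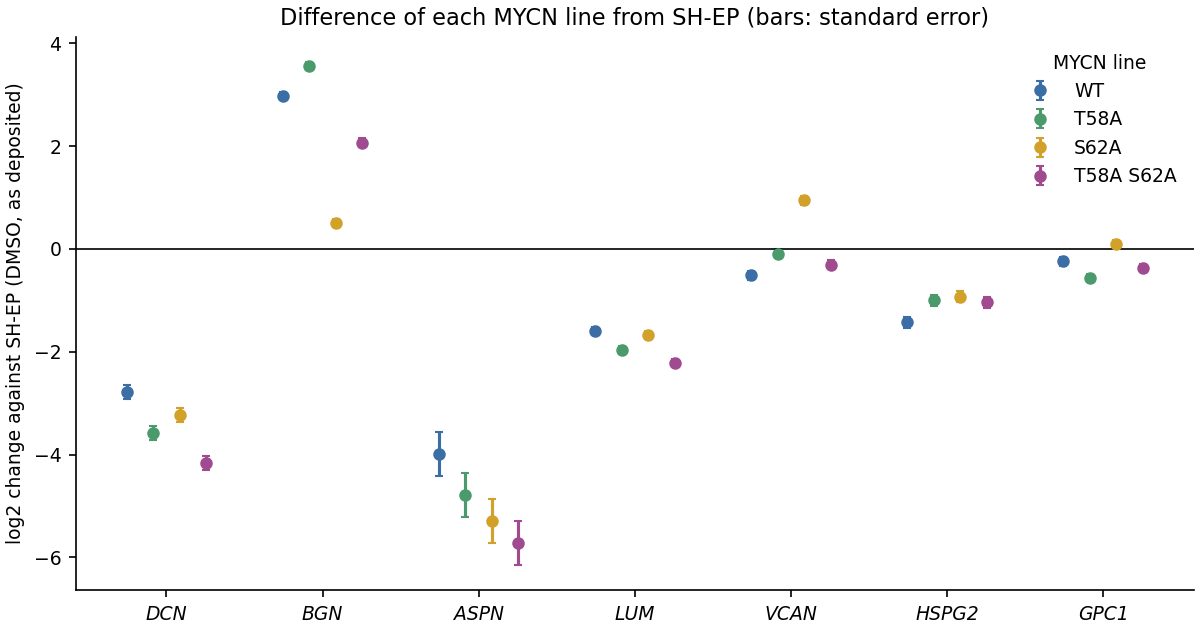
Difference from SH-EP in DMSO in log2(FPKM + 0.1), with SE, for the genes of the list that passed the filter, in each MYCN line, as deposited. LUM and HSPG2 lie below 0 in all 4 lines, VCAN lies above 0 in S62A as deposited (0.94), and DCN and BGN lie on opposite sides of 0 as deposited.

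The remaining class II and III SLRPs were close to the limit of the table. FMOD was above 0 in 5 of 30 libraries (at most 0.134 FPKM), OGN in 2 (at most 0.0632 FPKM), and PRELP in 11 (at most 0.218 FPKM), and none of them was tested. PRELP was listed in all 3 SH-EP CYC065 libraries, at 0.165, 0.126, and 0.218 FPKM, and in all 3 SH-EP DMSO libraries, at 0.0574, 0.0145, and 0.0376. Since 40.6% to 45.8% of genes were listed at 0 in each library, and a 0 may be an estimate that failed, these are not read as absence.

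SLRP genes lie in clusters. DCN and LUM share theirs with KERA, listed at 0 in every DMSO library, and with EPYC, at most 0.237 FPKM. ASPN lies 51.5 kb from OGN and 31.7 kb from OMD, which was at 0 in every DMSO library, and 11 kb from ECM2, at 0.270 to 0.314 FPKM in SH-EP and at most 0.226 in the MYCN lines. FMOD lies 124.0 kb from PRELP (chromosome 1, 203444934 to 203460480), which is 2.8 kb from OPTC, at 0 in every DMSO library. In the clusters of DCN and ASPN, genes with measured levels thus lay beside genes listed at 0.

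Comparing each mutant with WT MYCN asked whether these genes differ between the lines with mutant and WT MYCN. DCN and BGN were chosen on the contrast with SH-EP, not on this one. The DMSO values of the MYCN lines enter both contrasts, so the calls of DCN and BGN are not independent of that choice. The counts below include both, and their adjusted p-values here serve as description only. T58A rose above WT in BGN (0.59, adjusted p = 7.56e-06), VCAN (0.43, 0.00194), and HSPG2 (0.43, 0.00541). It fell below WT in DCN (-0.80, 0.000234), LUM (-0.37, 0.00147), and GPC1 (-0.32, 0.00588), all in log2. Thus 3 of the 7 genes tested were higher and 3 lower, against 10.7% and 13% of all genes (23.6% either way), and ASPN differed by -0.78 (0.203). Without DCN and BGN, the higher genes were VCAN and HSPG2 and the lower ones LUM and GPC1. With spike-in scaling, where the median gene moved by 0.28, the 3 higher genes passed (8.10% of all genes were higher) and the 3 lower did not.

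S62A differed from WT most in BGN, which fell by 2.46 (adjusted p = 1.25e-16, SE 0.08), and in VCAN, which rose by 1.46 (6.96e-11, SE 0.10) on the log2 scale. HSPG2 (0.49, 0.00161) and GPC1 (0.34, 0.00371) were also higher and DCN (-0.45, 0.0237) lower, and LUM differed by -0.08 (0.537). ASPN, at under 1 FPKM in both lines, was at -1.30 (0.0286), and its call was lost with a pseudocount of 0.01 (0.110) and in a fit of only the groups compared (0.106). The count of 3 higher and 3 lower, or 2 lower without ASPN, stood against 10.1% and 14% of all genes (24.1% either way). Without DCN and BGN, the higher genes were VCAN, HSPG2, and GPC1, and ASPN alone was lower. S62A also had less MYCN mRNA than WT, at 5.08 to 6.59 against 11.7 to 13.7 FPKM, and its part in these differences was not tested. With spike-in scaling the median gene moved by -0.71, LUM passed at -0.78 (adjusted p = 0.00121), and HSPG2 and GPC1 turned to -0.20 and -0.36, so that VCAN alone was higher and DCN, BGN, ASPN, and LUM lower. This made 1 higher and 4 lower (DCN, BGN, and LUM if ASPN is left out for its low level), against 0.181% and 74.9% of all genes. The DCN call was lost without WT library 1 or 2 or S62A library 0 or 2 (-0.53 to -0.40 over all such fits), and the ASPN call without WT library 0 or 2 or S62A library 0 or 1.

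T58A S62A fell below WT in DCN (-1.38, adjusted p = 1.31e-07), BGN (-0.90, 8.39e-09), and LUM (-0.63, 3.39e-06), and rose in HSPG2 (0.39, 0.0105). ASPN, again at under 1 FPKM in both lines and at 0 in 1 library, was at -1.72 (0.00447), a value that depends on the added 0.1, and its call was lost in a fit of only the groups compared (0.144). VCAN differed by 0.21 (0.118) and GPC1 by -0.13 (0.261). This made 4 lower, or 3 without ASPN, and 1 higher, against 14.2% and 9.43% of all genes (23.7% either way). Without DCN and BGN, the lower genes were LUM and ASPN, and HSPG2 was higher. With spike-in scaling, where the median gene moved by 0.40, BGN (-0.47, 0.106) and LUM (-0.20, 0.386) no longer passed, VCAN did (0.63, 0.0208), and GPC1 turned to 0.29. This made 2 lower and 2 higher, against 1.02% and 23.3% of all genes. The lower genes were DCN and ASPN, or DCN alone if ASPN is left out for its low level, and the higher ones VCAN and HSPG2. The HSPG2 call was lost without T58A S62A library 0 (0.30, adjusted p = 0.0809) or 2 (0.30, 0.0682).

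The ratio of BGN to DCN within a library does not depend on how libraries are scaled. In DMSO it averaged 0.493 in SH-EP, 6.79 ± 0.285 in S62A, 27.6 ± 5.71 in WT, 40.2 ± 7.79 in T58A S62A, and 74.2 ± 18.3 in T58A (SD, n = 3). In CYC065 it was 0.499, 7.12, 21.3, 46.9, and 45.9 in the same order. SH-EP was thus the line with more decorin than biglycan mRNA in both treatments, and the mean log2 ratio kept the sign of its line under CYC065 (DMSO and CYC065: -1.02 and -1.0 in SH-EP, 4.74 and 4.39 in WT, 6.12 and 5.49 in T58A, 2.72 and 2.80 in S62A, 5.22 and 5.48 in T58A S62A). The pair were chosen for this contrast between lines, so no test is given.

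**Figure D3:**
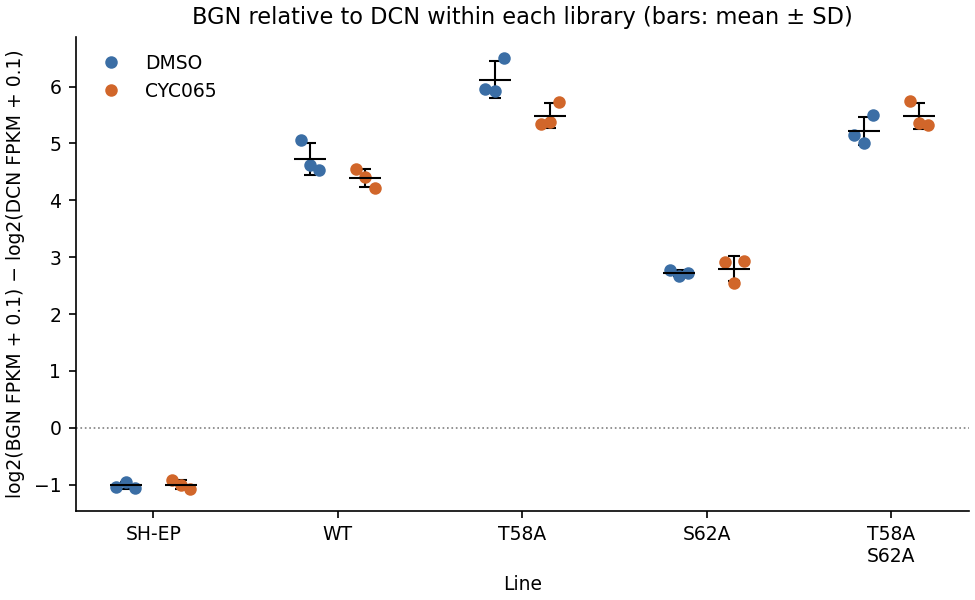
Log2 ratio of BGN to DCN (FPKM + 0.1 each) in every library of the 5 lines in DMSO and CYC065, with means as bars. SH-EP lies near -1 in both treatments, S62A near 2.7 to 2.8, and the other MYCN lines between 4.39 and 6.12 on average.

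The makeup of the summed level of the 10 genes differed with the line, on FPKM, which is per transcript length. In SH-EP in DMSO, LUM made up 43.0% of a sum of 229 ± 8.46 FPKM, GPC1 22.9%, DCN 12.3%, and BGN 6.08%. In WT, BGN made up 53.7%, GPC1 21.6%, LUM 16.1%, and DCN 1.98% of 204 ± 12.3 FPKM, and in T58A BGN reached 67.2% of 245 ± 10.4 FPKM. In S62A, GPC1 led with 40.4% of 138 ± 4.4 FPKM, followed by LUM (22.4%), VCAN (14.9%), and BGN (14.4%), whereas in T58A S62A BGN again led with 42.7% of 138 ± 11.8 FPKM (SD, n = 3). The leading transcript was therefore lumican in SH-EP, glypican 1 in S62A, and biglycan in the other 3 MYCN lines.

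**Figure D4:**
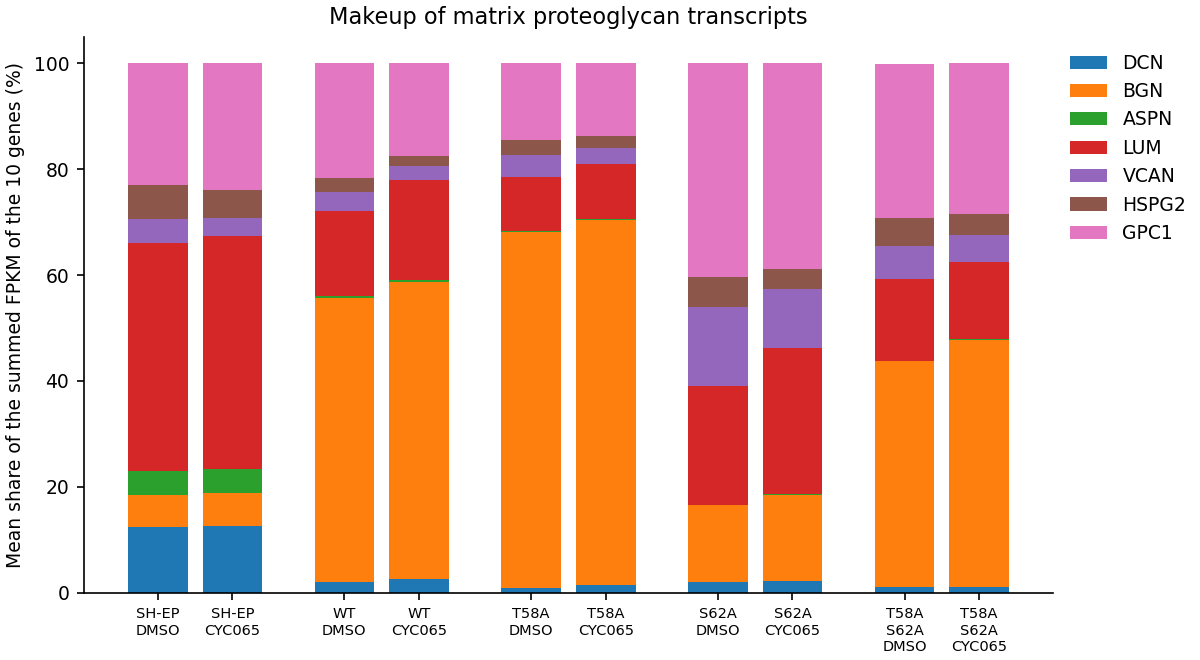
Share of the summed FPKM of the 10 genes held by each gene, in percent, as the mean of 3 libraries per line in DMSO and in CYC065. In DMSO, LUM is the largest share in SH-EP (43.0%), BGN in WT, T58A, and T58A S62A (53.7%, 67.2%, and 42.7%), and GPC1 in S62A (40.4%). FMOD, PRELP, and OGN are not drawn.

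CYC065 lowers transcription through CDK9, and the direction of its effect depended on the scale. The spike-ins were added by cell number, so spike-in scaled FPKM follows RNA per cell, while FPKM as deposited follows a gene's share of the RNA. As deposited, DCN stood at 58.7, 61.8, and 62.6 FPKM in SH-EP in CYC065 and at 9.97, 9.09, and 10.7 in WT, above every DMSO library of the same line. LUM likewise stood at 215, 210, and 214 FPKM in SH-EP in CYC065, and BGN at 235, 196, and 201 in WT. On spike-in scaled values, DCN in SH-EP went from 90.9, 81.8, and 100 in DMSO to 83.6, 88.8, and 73.2 in CYC065, with overlap. BGN in WT went from 203, 118, and 130 to 109, 70.1, and 84.1, with no overlap.

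On spike-in scaled values, class I and II SLRPs were lowered in some lines and VCAN in all 5. VCAN in WT went from 10.7, 9.00, and 9.96 to 4.09, 4.05, and 4.41. It fell by 1.22 in WT (adjusted p = 1.37e-06), 1.12 in S62A (6.26e-06), 0.81 in T58A (0.000378), 0.62 in T58A S62A (0.00500), and 0.60 in SH-EP (0.00613; SE 0.19 each, log2). HSPG2 fell in WT (-1.21, 1.44e-05), S62A (-1.21, 1.94e-05), T58A (-0.90, 0.000687), and T58A S62A (-0.66, 0.00951), and differed by -0.47 in SH-EP (0.0576; SE 0.22). GPC1 fell in WT (-1.13, 9.50e-06), S62A (-0.74, 0.00133), and T58A (-0.50, 0.0238). LUM fell in WT (-0.59, 0.00490) and T58A (-0.41, 0.0452), BGN in WT (-0.76, 0.00262) and S62A (-0.52, 0.0326), and DCN in S62A (-0.55, 0.0202). ASPN passed in no line, with differences of -0.91 to 0.39 (SE 0.48).

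The counts of members lowered by CYC065 stand beside those of all genes. In SH-EP 1 of 7 was lower, against 76.3% of all genes (77.2% either way). In WT 5 were lower (93.7% of all genes, 94.5% either way), in T58A 4 (84.5% and 85.8%), in S62A 5 (90.2% and 91.2%), and in T58A S62A 2 (76.4% and 78.3%). In the same order of lines, the median change of the 7 genes was -0.15, -0.76, -0.50, -0.55, and -0.38 and that of all genes -1.08, -1.58, -1.09, -1.35, and -0.98. Each of the 35 changes on this scale, 7 genes in 5 lines, was above the median of all genes in its line. Those of ASPN in the MYCN lines rest on spike-in scaled levels of at most 1.15, where the added 0.1 understates a change. As deposited, ASPN in T58A lay below the median of all genes (-0.02 against 0.07).

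On FPKM as deposited, the same changes were increases: all 7 genes were higher in SH-EP (42.7% of all genes), WT (37%), and S62A (38.8%), and 6 were higher in T58A (38.1%) and in T58A S62A (38.6%). Without ASPN, all 6 other genes were higher in every line. ASPN was at most 1.74 FPKM in WT, and its S62A libraries overlapped, at 0.117 to 0.277 in DMSO and 0.206 to 0.751 in CYC065. In SH-EP the increases ran from 0.66 (VCAN) to 1.15 (GPC1), with DCN, BGN, ASPN, and LUM at 1.11, 1.13, 1.06, and 1.11. ASPN in T58A differed by -0.02, the exception to the direction. CYC065 libraries were also shallower than DMSO libraries, by the ranges given above, and the part of depth in these changes was not tested. The calls nearest the threshold rested on single libraries: BGN in S62A was lost without DMSO library 0 or 1 or CYC065 library 1 or 2, DCN in S62A without DMSO library 1 or CYC065 library 2, and VCAN in T58A S62A without CYC065 library 1. LUM in T58A was lost in 5 of the 6 such fits, GPC1 in T58A in 4, and HSPG2 in T58A S62A in 2.

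**Figure D5:**
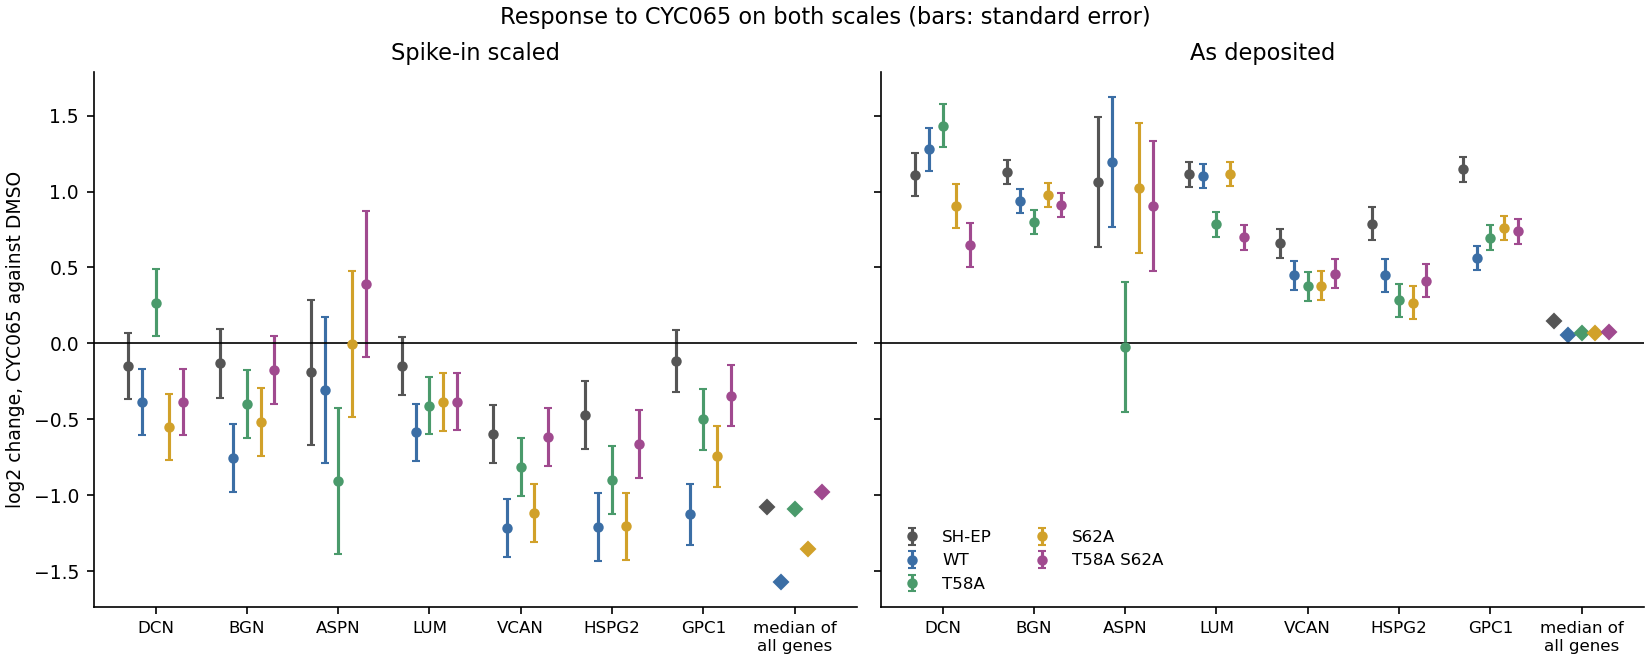
Change with CYC065 in log2(FPKM + 0.1), with SE, for 7 genes in each of the 5 lines, spike-in scaled and as deposited. Diamonds in the last column give the median of all genes in each line. On spike-in scaled values all 35 changes lie above the median of all genes in their line, and VCAN and HSPG2 lie lowest in WT and S62A. As deposited, ASPN in T58A lies below that median.

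Whether CYC065 acted on these genes differently in a MYCN line than in SH-EP was tested as an interaction on spike-in scaled values. GPC1 passed in WT: it went from 183, 162, and 159 to 166, 172, and 130 in SH-EP and from 80.1, 47.8, and 53.0 to 31.9, 24.2, and 25.1 in WT. Its change was lower in WT by 1.01 in log2 (-1.01, SE 0.28, adjusted p = 0.0334, limma), making it 1 of 7 genes against 14.1% of all genes lower (16.0% either way). GPC1 differed by -0.38 (T58A), -0.63 (S62A), and -0.23 (T58A S62A) in the other lines (adjusted p = 0.718, 0.227, and 0.896). The call was lost in 8 of the 12 fits that left out 1 library, among them WT DMSO library 0 (-0.79, adjusted p = 0.133), which was the highest of its group, and the others were without WT CYC065 library 1 or 2, any SH-EP DMSO library, or SH-EP CYC065 library 0 or 1.

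In T58A, S62A, and T58A S62A, 0 members passed the interaction, against 2.66%, 4.83%, and 5.46% of all genes. In S62A, limma gave -0.74 for HSPG2 (adjusted p = 0.199) and -0.63 for GPC1 (0.227). In WT, HSPG2 differed by -0.74 (adjusted p = 0.0842) and VCAN by -0.62 (0.0886). As deposited, 1 member (WT), 4 (T58A), 2 (S62A), and 2 (T58A S62A) had a lower change than in SH-EP, against 18.1%, 14%, 13.7%, and 14.8% of all genes. GPC1 was at -0.58 in WT on that scale (adjusted p = 0.000656).

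Across the 10 group means, the genes most like DCN by Pearson's r of log2(FPKM + 0.1) were HGF (0.986), MYLK (0.984), MAGED1 (0.984), LOX (0.979), and PHF1 (0.978). HGF, hepatocyte growth factor, stood at 51.1 FPKM in SH-EP in DMSO and at 8.16 (WT), 7.60 (T58A), 6.57 (S62A), and 5.10 FPKM (T58A S62A) in the MYCN lines. LOX encodes lysyl oxidase, which crosslinks collagen. Of the list itself, LUM (0.968, rank 21) and ASPN (0.962, rank 34) were near DCN, followed by HSPG2 (0.835), GPC1 (0.631), VCAN (0.214), and BGN (-0.372). Most like BGN were SLC7A5 (0.958), SCLT1 (0.954), IGF2 (0.952), ANXA10 (0.947), and SLC16A10 (0.943). IGF2, an insulin-like growth factor, stood at 18.4 (T58A), 13.6 (WT), 7.90 (T58A S62A), 4.16 (S62A), and 1.02 FPKM (SH-EP) in DMSO, the order of the lines in BGN. The groups share their lines and treatment and the DCN pattern separates mainly SH-EP from the rest, so these values describe and test nothing.

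Genes that work with these proteoglycans were counted where they passed alike in all 4 MYCN lines in DMSO, as deposited. Of 8 collagens bound by SLRPs, 6 fell in all 4 lines and 0 rose, led by COL5A1 (mean difference -1.90). Of 13 other core proteins, 7 fell, led by SRGN (serglycin, -2.14), and 2 rose, led by CSPG4 (NG2, 2.75, from 0.38 in S62A to 3.72). Among the other 12 SLRPs listed, 2 were tested: PODNL1 fell (-2.23) and TSKU (tsukushi) rose (0.43). For comparison, 13.4% of all genes fell and 19.2% rose in all 4 lines.

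Enzymes of the sugar chains were counted in the same way. Of 5 that build the linker to the core protein, 4 fell and 0 rose, led by XYLT2, a xylosyltransferase that starts the chain (-1.05). Of 12 chondroitin and dermatan sulfate enzymes, 5 fell and 1 rose, CHST14, a dermatan sulfotransferase, leading the falls (-0.88) and CHST11, a chondroitin sulfotransferase, being the rise (1.23). Of 13 heparan sulfate enzymes 6 fell, led by the sulfotransferase HS3ST3B1 (-1.54), and 2 rose, led by HS6ST1 (0.57), and of 8 genes for sulfate donors and transport 3 fell, led by PAPSS2 (-0.80), and 0 rose. Of 5 hyaluronan and versican partners and proteases, ADAMTS9 fell (-3.08) and ADAMTS1 rose (1.99), and of 12 growth factors, receptors, and processing genes 5 fell, led by TGFBR2 (-1.40), and 2 rose, led by TGFB3 (1.17). Of the mesenchymal markers, 5 of 6 also fell in all 4 lines, and of the Schwann cell markers the 1 tested fell. Their part in the proteoglycan levels was not tested. With spike-in scaling most of the listed genes were lower in each line: 8 of 8 collagens, 11 to 13 of 13 other core proteins, 12 to 13 of 13 heparan sulfate enzymes, and 9 to 11 of 12 chondroitin and dermatan sulfate enzymes, beside 70.2% to 95.1% of all genes. The risers HS6ST1, HS2ST1, TSKU, AGRN, and IGF1R then lay below SH-EP in all 4 lines, CSPG4, CHST11, ADAMTS1, and TGFB3 in S62A, and TGFB3 also in WT. The CSPG4 call in S62A was lost without S62A library 1 or SH-EP library 0 or 2.

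With CYC065 on spike-in scaled values, enzymes of the sugar chains were among the genes that fell in every line. NDST2, a heparan sulfate sulfotransferase, fell in all 5 lines (mean -3.46), as did HAS2, a hyaluronan synthase (-3.05), CHST3, a chondroitin sulfotransferase (-2.83), and XYLT2 (-2.70), and 69.8% of all genes did so. Of 12 chondroitin and dermatan sulfate enzymes, 10 fell in SH-EP (76.3% of all genes), 12 in WT (93.7%), T58A (84.5%), and S62A (90.2%), and 11 in T58A S62A (76.4%). As deposited, 7 of the 12 were higher and 3 lower in SH-EP, 2 and 3 in WT, 2 and 2 in T58A, 3 and 5 in S62A, and 4 and 4 in T58A S62A. Of the 8 collagens, 2 fell in SH-EP, 8 in WT and S62A, 6 in T58A, and 5 in T58A S62A on spike-in scaled values, whereas as deposited 7 were higher in S62A and 8 in each other line, with 0 lower. XYLT2 in SH-EP differed by 0.12 as deposited.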

How the data were processed

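Poly(A) RNA from 5 lines in DMSO or CYC065 was sequenced from strand-specific libraries, 30 in all. The authors used HISAT2 for alignment to hg19/GRCh37 and Cufflinks for FPKM, after ERCC spike-ins had been put in according to cell number; the annotation was not given in the sources used here. The deposited table has FPKM without any spike-in scaling, covers 26228 genes and 92 spike-ins, and carries no read counts, so no counting interval is given. Table columns name line and treatment but number libraries 0 to 2 where the labels use 1 to 3, so they were mapped to groups only, and 0 columns belonged to other samples. No 2 libraries were identical (0 pairs), and r within groups was 0.975 to 0.987.

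Genes averaging 1 FPKM or more (11575, among them 7 of the 10 members) were tested on log2(FPKM + 0.1) with limma 3.58.1 in R 4.3.3 (lmFit, eBayes with trend) in 1 fit over 10 groups with 20 residual degrees of freedom. A Benjamini-Hochberg adjusted p under 0.05 over all genes tested was the threshold, and every adjusted p in the text is of this kind. On this scale the change of a low gene is understated. Lines were compared as deposited. CYC065 responses and interactions used FPKM scaled to the median of the 55 spike-ins that averaged 1 FPKM or more. Exact permutation of 3 libraries against 3 cannot go below p = 0.1 and was not used. The members and gene lists were chosen with earlier results of these data known. The rule for named genes took, per list and direction, the 3 with the largest mean change among those called alike in every line; of these the first is printed for the MYCN lines, besides 3 risers that spike-in scaling turned, and under CYC065 the first of 4 enzyme lists. Likeness names the 5 highest correlations. Promoters are RefSeq windows of GRCh38.p14. As alternatives, the pseudocount was set to 1 or 0.01, the filter dropped or raised to 5 FPKM, and the analysis run with the other scaling, centring on library medians, spike-ins averaging 50 FPKM or more, fits of the compared groups alone, and fits without each library. On simulated data for WT against SH-EP in 11575 genes, 185 of 200 changed genes (92.5%) were recovered and 8 unchanged genes called. The simulation changed only these 200 genes and had no shift in library scale, whereas 54.2% of genes were called in the data. It therefore cannot gauge the false calls of the real contrast.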

Additional observations from a re-analysis of the deposited data

Results flagged for a closer look

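The response of GPC1 to CYC065 differed between WT and SH-EP by -1.01 in log2 on spike-in scaled values (limma interaction, adjusted p = 0.0334), with 3 libraries per group. The CYC065 change was -0.12 in SH-EP and -1.13 in WT, and -0.50, -0.74, and -0.35 in T58A, S62A, and T58A S62A. The median of all genes for this interaction was -0.51. The call was lost in 8 of the 12 fits that left out 1 library and with spike-ins averaging 50 FPKM or more (adjusted p = 0.147). As deposited the interaction in WT was -0.58 (adjusted p = 0.000656), with a median of all genes of -0.12.

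VCAN differed between the S62A and WT lines in DMSO by 1.46 in log2 (limma, adjusted p = 6.96e-11). It lay above SH-EP in every S62A library (0.94) and below SH-EP in every WT library (-0.51). The S62A libraries held 19.2 to 21.9 FPKM of VCAN and the WT libraries 6.48 to 8.0 FPKM. On spike-in scaled values VCAN lay below SH-EP in both lines, by -1.01 and -1.78.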

How the results depend on the processing

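Of the counts of members called and the BGN to DCN ratios, 209 recomputed values stayed on the same side or within the stated margin and 42 did not, and where a result changed the cause was not tested. A pseudocount of 0.01, no filter, and a filter at 5 FPKM, which removes ASPN, left every count of members within 1.5 times. Member counts at other settings are not read as particular to the members where the share of all genes is not printed. No paired analysis was possible because the columns carry no replicate number that matches the labels. Read depth was known only in relative terms, and FMOD, PRELP, OGN, and ASPN in the MYCN lines lay at levels where values of 0 occur.

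With a pseudocount of 1, 2 members were lowered by CYC065 in SH-EP, ASPN turned to 0.0062 under CYC065 in S62A and its interaction to 0.036 in WT, and the VCAN interaction to 0.0055 in T58A S62A. The log2 ratio of BGN to DCN became in DMSO 5.66 (T58A), 2.41 (S62A), and 4.58 (T58A S62A), and its CYC065 minus DMSO difference in SH-EP -0.0093 in place of 0.01. With no filter, LUM in T58A and BGN in S62A lost their CYC065 calls (adjusted p = 0.0600 and 0.0532).

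With spike-in scaling of the DMSO lines, 3 members passed between T58A and WT in place of 6. Against SH-EP, S62A turned to -1.45 for BGN, -1.01 for VCAN, -1.87 for GPC1, -1.47 for CSPG4, -0.48 for CHST11, and -0.37 for ADAMTS1. HS6ST1 turned to -0.64, -0.47, -1.14, and -0.44 and TSKU to -0.89, -0.53, -1.43, and -0.43 (the 4 lines in the order used throughout, ending with T58A S62A), and TGFB3 to -0.48 in WT and -1.07 in S62A. AGRN turned to -0.79, -0.35, -1.13, and -0.025, HS2ST1 to -0.88, -0.51, -1.55, and -0.59, and IGF1R to -0.29, -0.26, -0.45, and -0.26 in that order of lines. Against WT, BGN and LUM lost their calls in T58A S62A (-0.47 and -0.20, adjusted p = 0.106 and 0.386), VCAN gained one there (0.63, 0.0208) and LUM in S62A (-0.78, 0.00121), HSPG2 and GPC1 turned to -0.20 and -0.36 in S62A and GPC1 to 0.29 in T58A S62A.

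As deposited, CYC065 raised 7 members in SH-EP and 6 in T58A S62A, and 4, 2, and 2 interactions passed in T58A, S62A, and T58A S62A. For DCN, BGN, ASPN, LUM, VCAN, HSPG2, and GPC1 in that order, the CYC065 changes were 1.11, 1.13, 1.06, 1.11, 0.66, 0.79, and 1.15 in SH-EP, 1.28, 0.94, 1.20, 1.10, 0.45, 0.45, and 0.56 in WT, and 0.90, 0.98, 1.03, 1.11, 0.38, 0.27, and 0.76 in S62A. For BGN, LUM, VCAN, HSPG2, and GPC1 they were 0.80, 0.79, 0.38, 0.29, and 0.70 in T58A and 0.91, 0.70, 0.46, 0.41, and 0.74 in T58A S62A, where DCN was at 0.65. XYLT2 was at 0.12 in SH-EP. Interactions of DCN and ASPN in WT were 0.17 and 0.13, those of ASPN and LUM in S62A -0.039 and 0.00046, and that of ASPN in T58A S62A -0.16.

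With libraries centred on their median, CYC065 raised 7 members in SH-EP and 7 in T58A S62A, and 2 interactions passed in each of T58A, S62A, and T58A S62A. The share of all genes raised by CYC065 on this scale is not given, so these counts are not read as particular to the members. The count in T58A S62A includes ASPN, which was at most 0.431 FPKM there as deposited. In the same order of 7 genes the changes were 1.25, 1.27, 1.20, 1.25, 0.80, 0.93, and 1.29 in SH-EP, 1.46, 1.11, 1.37, 1.28, 0.63, 0.63, and 0.74 in WT, and 1.07, 1.15, 1.19, 1.28, 0.55, 0.43, and 0.93 in S62A. For BGN, LUM, VCAN, HSPG2, and GPC1 they were 0.98, 0.97, 0.56, 0.47, and 0.88 in T58A, with ASPN at 0.16, and 1.06, 0.85, 0.61, 0.57, and 0.89 in T58A S62A, with DCN at 0.80. XYLT2 was at 0.26 in SH-EP. Interactions of DCN, ASPN, and LUM in WT were 0.20, 0.17, and 0.027, those of ASPN and LUM in S62A -0.0099 and 0.030, and that of ASPN in T58A S62A -0.14.

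With spike-ins of at least 50 FPKM, 0 members were lowered by CYC065 in SH-EP (VCAN, adjusted p = 0.0584) and 2 in T58A, 0 interactions passed in WT (GPC1, adjusted p = 0.147), and that of ASPN in S62A was -0.021. With only the groups compared, 2 members passed under CYC065 in SH-EP and 2 in T58A, 3 between T58A S62A and WT, and 2 and 1 interactions in WT and S62A. For the CYC065 counts of both settings the share of all genes is not given, so they are not read as particular to the members.

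Without single libraries, members lowered by CYC065 ran from 3 to 6 in S62A, 2 to 5 in T58A, and 0 to 4 in T58A S62A, and interactions in WT from 0 to 2. Of all 11575 genes, those passing under CYC065 in these fits ran from 10053 to 10521 in S62A and 8778 to 10628 in T58A. They ran from 7702 to 9290 in T58A S62A, and interactions in WT from 144 to 3963. Changes that crossed 0 ran from -0.23 to 0.30 (ASPN, CYC065, S62A), -0.28 to 0.80 (ASPN, CYC065, T58A S62A), -0.31 to 0.0072 (BGN, CYC065, T58A S62A), -0.19 to 0.0098 (GPC1, CYC065, SH-EP), and -0.13 to 0.0034 (LUM, S62A against WT). Interactions that crossed 0 ran from -0.38 to 0.17 (ASPN, WT) and -0.043 to 0.49 (ASPN, S62A), and in T58A S62A from -0.087 to 0.99 (ASPN), -0.18 to 0.14 (BGN), -0.18 to 0.18 (VCAN), and -0.36 to 0.018 (HSPG2).

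Over all genes, counts past the threshold that moved by over 1.5 times were, with spike-in scaling, 10383 (from 6270) in WT and 11050 (from 6291) in S62A against SH-EP and 988 (from 2737) in T58A and 8694 (from 2792) in S62A against WT. With only the groups compared, T58A, S62A, and T58A S62A against WT gave 1737, 1675, and 1092. The interactions gave 1848 (WT), 308 (T58A), 559 (S62A), and 632 (T58A S62A). These became 3306, 2765, 2852, and 2940 as deposited, 2976, 2495, 2650, and 2801 when centred, and 24, 136, 183, and 168 with spike-ins of at least 50 FPKM. They also became 517 (T58A) and 1092 (S62A) with a pseudocount of 1, 846 (WT) with no filter, 170, 277, and 373 (T58A, S62A, and T58A S62A) with a filter at 5 FPKM, and 154 (T58A) and 1528 (S62A) with only the groups compared.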
